A study of Mus musculus with 2 samples.

Results

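Transcript levels of Polycomb complex subunits were compared in mouse embryonic fibroblasts (MEFs), connective tissue cells grown from embryos. RNA was sequenced from cells labelled TET1/TET2 knocked out and from wild-type cells, with 1 library for each of these 2 genotypes. TET1 and TET2 oxidize 5-methylcytosine in DNA, and the title of the series asks how they bear on developmental genes. The alleles, the age of the embryos and the number of embryos or cultures behind each library are not given in the labels. The genes were chosen by symbol, as the 34 of 23365 genes in the authors' deposited table whose names are those of known subunits, and all 34 were found. They comprised 11 genes of Polycomb repressive complex 2 (PRC2), 20 of Polycomb repressive complex 1 (PRC1) and 3 of the Polycomb repressive deubiquitinase (PR-DUB).

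The authors' deposited table compares a condition B with a condition A, and the labels do not say which of these is the knock-out. Each fold below, and each log2 fold, written log2 B/A, sets condition B over condition A and is given to neither genotype. The mean normalized count of a gene, used as its level, averages its size-factor-scaled counts over both conditions. Values per condition and counting errors were not analysed here, so no ratio carries an error. Since each genotype has 1 library, differences could not be checked in replicates, and the authors' p-values compare 2 libraries. A ratio in bulk RNA also cannot tell a change in RNA per cell from a change in the share of cells of a type.

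Polycomb complexes keep developmental genes silent by modifying histones at CpG-rich promoters. PRC2 methylates lysine 27 of histone H3 through its catalytic subunit, Ezh2 or Ezh1, on a core that holds Eed and Suz12. PRC1 ubiquitinates a lysine of histone H2A through Ring1 or Rnf2, each paired with a PCGF protein. Canonical PRC1 reads the mark of PRC2 through a CBX protein, and variant PRC1 holds Rybp or Yaf2 in its place. PR-DUB removes the ubiquitin that PRC1 adds. In cultured fibroblasts the complexes are best known for repressing the INK4 locus, which encodes cell cycle inhibitors.

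Most of the 34 genes differed little between the conditions, and the few that differed by 2-fold or more were all lower in condition B. The authors' deposited table put 3 genes past a log2 B/A of 1 in size: Phf19, Ezh2 and Phc1, all lower. Every one of the 34 reached 50 mean normalized counts, the minimum used for this size rule. The 3 genes are 8.82% of the 34, beside 17.9% of the 12401 genes at that minimum in the authors' deposited table. In the lower direction alone the share was the same 8.82%, beside a background of 9.60%, and in the higher direction 0 genes met the rule, beside 8.31%. The number of genes past the size rule was therefore not above the background.

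The median log2 B/A over the 34 genes was -0.23 in the authors' deposited table, beside -0.04 over all genes at the minimum mean. Log2 ratios were below 0 for 23 of the 34 (67.6%) and for 52.8% of all genes at that minimum. Without Ezh2, Phf19 and Phc1, the median of the other 31 genes was -0.19 in the authors' deposited table, and their log2 ratios ran between -0.87 and 0.52. The authors' adjusted p was under 0.1 for 0 of the 34 genes, beside 2.29% of the 17339 genes they tested with DESeq. It was 1 for 31 of the 34, all but Ezh2, Phf19 and Phc1. At an unadjusted p under 0.05 the count was 3 of 34 in the authors' deposited table, again Phf19, Ezh2 and Phc1, which is 8.82% beside 6.28% of all genes tested. The 17339 genes tested include genes under the minimum mean, which all 34 reached. Among genes at that minimum the share at an unadjusted DESeq p under 0.05 was 8.72%, near that of the 34.

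**Figure D1:**
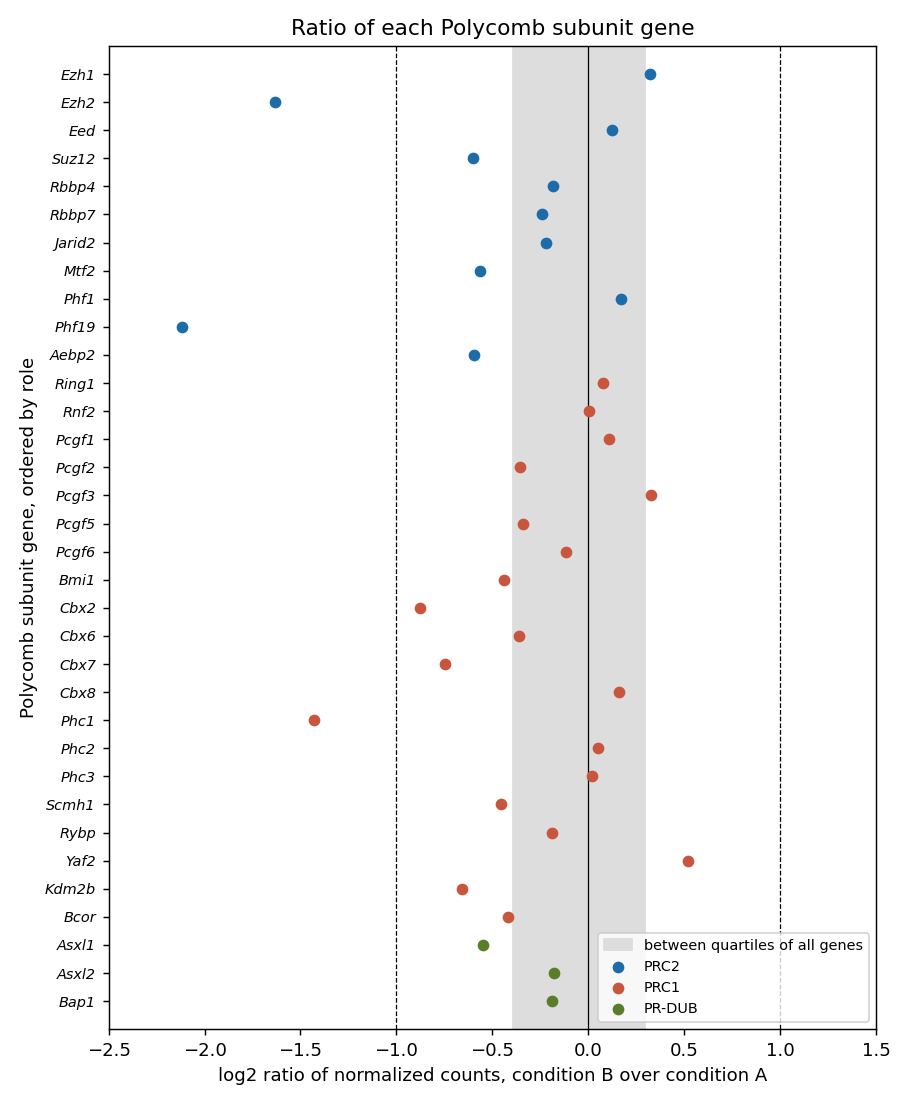
Log2 B/A of each of the 34 Polycomb subunit genes (points, 1 value per gene in the authors' deposited table), with the range between the quartiles of all genes at the minimum mean shaded and a log2 B/A of 1 in size dashed. Phf19 (-2.12), Ezh2 (-1.63) and Phc1 (-1.43) lie past the dashed line, and Yaf2 (0.52) lies highest.

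Spread between the conditions depends on level, so the genes were also read against genes of their own level. From 1000 up to 5000 mean normalized counts lay 17 of the 34 genes, with a median log2 B/A of -0.19 in the authors' deposited table. The 5266 genes of that range had quartiles of -0.36 and 0.22, and 7.18% of them were lower by the size rule. The 2 subunit genes past the rule there were Ezh2 and Phc1. At 5000 and above lay 10 subunit genes, none past the rule, with a median of -0.30 in the authors' deposited table, beside 0.05 over the 3070 genes of that range. From 200 up to 1000 lay 6 subunit genes, with Phf19 the one past the rule, and of the 2741 genes of that range 29.5% met it and 16.6% were lower by it. The last, Cbx7, lay from 50 up to 200.

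**Figure D2:**
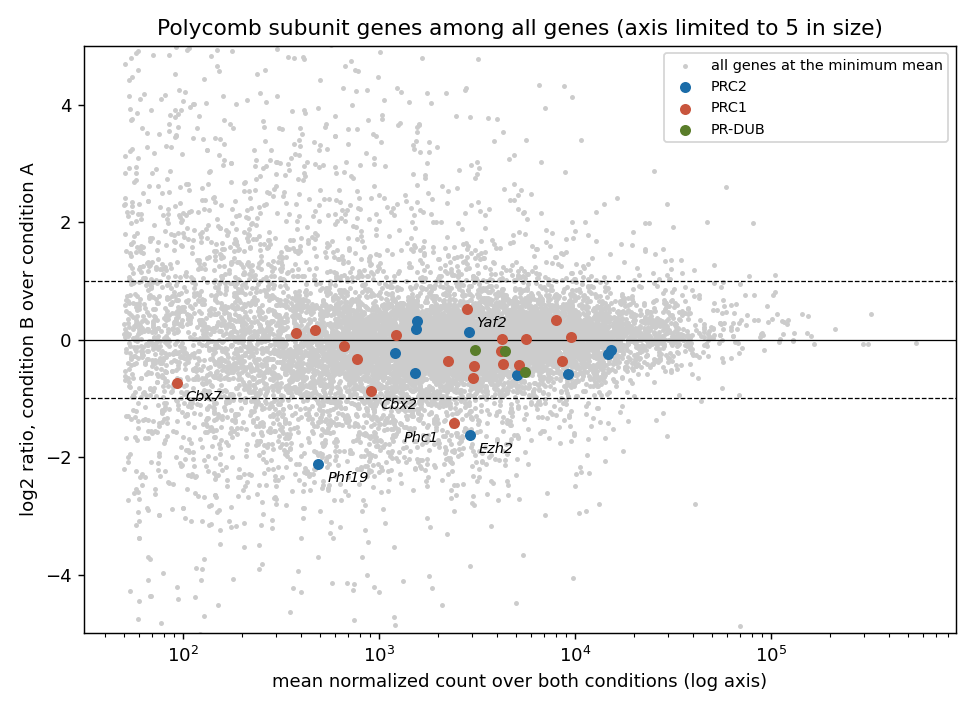
Log2 B/A against the mean normalized count over both conditions (log axis) for all genes at the minimum mean (grey) and the Polycomb subunit genes (coloured by complex), from the authors' deposited table. Ezh2 and Phc1, with mean normalized counts of 2919 and 2426, lie below most genes of their level, and Cbx7 is the least abundant at 93.1.

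Among the core subunits of PRC2, only Ezh2 met the size rule. Ezh2, the methyltransferase of dividing cells, was 3.10-fold lower in condition B by the authors' deposited table, and its mean normalized count was 2919 (log2 B/A -1.63, raw p = 0.0137, adjusted p = 0.340). Of all genes at the minimum mean, 4.53% had a lower ratio. Its paralogue Ezh1, the methyltransferase that prevails in resting cells, had a log2 B/A of 0.32 in the authors' deposited table at a mean of 1558. None of the other core subunits met the size rule. Suz12, the scaffold of the complex, had a log2 B/A of -0.60 in the authors' deposited table at a mean of 5077. Eed, which binds the methylated histone, had one of 0.12 there at a mean of 2881. The histone-binding proteins Rbbp4 and Rbbp7, which also serve other chromatin complexes, had log2 B/A values of -0.18 and -0.24 by the authors' deposited table. For Rbbp4, 18.0% of exonic bases are shared with other genes in the GENCODE annotation, Sync and a predicted gene.

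The accessory subunits, which bring PRC2 to chromatin and tune its activity, covered the widest range of ratios of the subunit groups. Phf19, one of the Polycomb-like proteins (PCL) that tether PRC2 to CpG-rich DNA, had the most extreme ratio of the 34 genes. It was 4.34-fold lower in condition B by the authors' deposited table at a mean normalized count of 493 (log2 B/A -2.12, raw p = 0.0132, adjusted p = 0.332). Only 2.52% of genes at the minimum mean had a lower ratio. Its relatives Mtf2 and Phf1 had log2 B/A values of -0.57 and 0.17 by the authors' deposited table, at means of 1532 and 1544. Of the exonic bases of Phf1, 39.3% are shared with other genes in that annotation, among them Cuta, and no subunit gene beside Phf1 and Rbbp4 shares over 10%. The library kit does not mark strand, so reads of an overlap on the opposite strand cannot be told apart. Aebp2 and Jarid2, which mark the other form of the complex, had log2 B/A values of -0.59 and -0.22 by the authors' deposited table at means of 9287 and 1209. In all, 8 of the 11 PRC2 genes had ratios below 0, and the median was -0.24 in the authors' deposited table.

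Promoter windows of the subunit genes were searched for letters of the E2F motif. E2F factors are known to drive genes of DNA replication and Ezh2 itself. The letters TTTCCCGC, TTTCGCGC, TTTGCCGC and TTTGGCGC, forms of the E2F consensus, were looked for on both strands in windows of 250 bases before to 50 bases after each RefSeq start (GRCm38.p6). This motif was chosen with the ratios known. Windows were held for 30 of the 34 genes, and Cbx2, Pcgf1, Rybp and Yaf2 had none. A match lay in 3 of the 30, all of them PRC2 genes, beside 4.71% of the 9231 genes at the minimum mean with a window and 5 of 13 proliferation genes. The 3 subunit genes with a match were Ezh2, Phf19 and Suz12, a number too small to read against the background. The windows of these 3 genes follow, with those of Phc1, which was lower without a match, and Ezh1, the paralogue that was not lower. Capitals mark the matched letters, read 5′ to 3′ on the strand of the gene.
Ezh2, chr6:47594981-47595280, minus strand: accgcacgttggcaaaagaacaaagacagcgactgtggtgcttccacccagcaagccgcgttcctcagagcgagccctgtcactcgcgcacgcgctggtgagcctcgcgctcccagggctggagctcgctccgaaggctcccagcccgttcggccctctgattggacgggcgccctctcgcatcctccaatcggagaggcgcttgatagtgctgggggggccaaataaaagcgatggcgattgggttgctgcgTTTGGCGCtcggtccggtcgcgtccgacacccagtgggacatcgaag
Phf19, chr2:34913927-34914226, minus strand: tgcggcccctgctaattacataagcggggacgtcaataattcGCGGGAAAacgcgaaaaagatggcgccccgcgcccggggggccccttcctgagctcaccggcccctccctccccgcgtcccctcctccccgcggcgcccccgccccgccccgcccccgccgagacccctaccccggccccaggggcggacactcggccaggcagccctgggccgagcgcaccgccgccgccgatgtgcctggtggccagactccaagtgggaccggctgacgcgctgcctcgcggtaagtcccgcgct
Suz12, chr11:79992856-79993155, plus strand: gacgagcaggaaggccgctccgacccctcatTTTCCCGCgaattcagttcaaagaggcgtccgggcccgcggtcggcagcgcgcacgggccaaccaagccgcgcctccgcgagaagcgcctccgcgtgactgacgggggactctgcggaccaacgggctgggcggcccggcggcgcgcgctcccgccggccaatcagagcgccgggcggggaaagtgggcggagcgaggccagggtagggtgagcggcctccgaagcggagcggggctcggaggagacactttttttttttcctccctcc
Phc1, chr6:122340178-122340477, minus strand: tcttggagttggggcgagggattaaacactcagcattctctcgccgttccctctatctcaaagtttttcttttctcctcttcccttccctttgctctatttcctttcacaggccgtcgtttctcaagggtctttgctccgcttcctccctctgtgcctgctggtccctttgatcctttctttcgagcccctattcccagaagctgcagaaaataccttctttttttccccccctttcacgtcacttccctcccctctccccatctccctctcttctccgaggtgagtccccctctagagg
Ezh1, chr11:101226414-101226713, minus strand: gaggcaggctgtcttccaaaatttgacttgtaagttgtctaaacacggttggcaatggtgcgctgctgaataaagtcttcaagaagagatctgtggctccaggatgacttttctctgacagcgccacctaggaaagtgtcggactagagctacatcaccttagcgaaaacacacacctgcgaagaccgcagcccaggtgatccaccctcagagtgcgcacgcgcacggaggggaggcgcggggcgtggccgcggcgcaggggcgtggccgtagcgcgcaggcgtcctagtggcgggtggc

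The match in Ezh2 begins 3 bases after the annotated start, and those in Phf19 and Suz12 begin 208 and 219 bases before it. Genes without a match lay on both sides of 0: in the authors' deposited table Aebp2 (-0.59) and Mtf2 (-0.57) had log2 B/A values near that of Suz12 (-0.60), and Eed (0.12) lay above 0. A match describes letters only, and binding of a factor was not measured. Whether matches relate to the ratios was not tested. The letters TTTGAA or TTCGAA, forms of the element shared by many mitotic genes, were found in 8 of the 30 genes (26.7%), beside 21.7% of all 27025 genes with windows. This background, unlike that of the E2F letters, takes in genes under the minimum mean. The 8 were Aebp2, Asxl1, Bcor, Cbx7, Eed, Mtf2, Scmh1 and Suz12, and the windows of Ezh2, Phf19 and Phc1 held no such letters. A window with at least 50% G and C and an observed over expected CpG ratio of at least 0.6 was held by 28 of the 30 (93.3%), beside 75.5% of the genes at the minimum mean. The exceptions were Pcgf2 and Phc1. The Phc1 window printed above holds 9 CpGs, against 31 in that of Ezh2 and 38 in that of Phf19.

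In PRC1, the ratios of the catalytic pair lay near 0. Rnf2, the main ubiquitin ligase, had a log2 B/A of 0.00 by the authors' deposited table at a mean normalized count of 4232, and Ring1 had one of 0.07 at a mean of 1224. The 6 PCGF genes, whose products set the type of PRC1, all lay within 0.5 of 0. Bmi1, the PCGF protein of canonical PRC1 best known for holding off senescence in fibroblasts, had a log2 B/A of -0.44 in the authors' deposited table at a mean of 5195. Pcgf2, its close relative in canonical PRC1, had one of -0.36 there at a mean of 2261. Pcgf3 and Pcgf5, which belong to variant complexes of one kind, had log2 B/A values of 0.33 and -0.34 by the authors' deposited table. Pcgf1, the partner of Kdm2b and Bcor, lay at 0.11 and Pcgf6, of the E2f6 and Mga complex, at -0.11 in the authors' deposited table.

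The subunits particular to canonical PRC1 held the one PRC1 gene past the size rule. Phc1, a Polyhomeotic protein whose SAM domain links PRC1 complexes to each other, was 2.69-fold lower in condition B by the authors' deposited table at a mean of 2426 (log2 B/A -1.43, raw p = 0.0319, adjusted p = 0.596). Its relatives Phc2 and Phc3 lay near 0, at log2 B/A values of 0.05 and 0.02 by the authors' deposited table and means of 9566 and 5640. Scmh1, another SAM domain protein of the complex, lay at -0.46 in the authors' deposited table.

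The CBX genes, which encode the readers of methylated histone H3, differed in both level and ratio. Cbx2 came nearest to the size rule without meeting it, 1.83-fold lower in condition B by the authors' deposited table at a mean of 917 (log2 B/A -0.87). Cbx7 was 1.68-fold lower by the authors' deposited table (log2 B/A -0.75), at a mean of 93.1, the lowest level of the 34 genes, where ratios spread widely. Of the 1324 genes from 50 up to 200 mean normalized counts, 45.6% met the size rule. Cbx6, the most abundant of the 4 CBX genes here, had a log2 B/A of -0.36 in the authors' deposited table at a mean of 8633, and Cbx8 had one of 0.16 at a mean of 475.

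Among the variant PRC1 subunits, Yaf2 and Rybp had log2 ratios of opposite sign, neither past the size rule. These paralogues take the place of the CBX protein and raise the activity of the ligase. Yaf2 had the highest log2 B/A of the 34 genes, 0.52 in the authors' deposited table at a mean of 2825, and Rybp had one of -0.19 at a mean of 4200. Kdm2b, which binds unmethylated CpG islands through its CXXC domain and brings variant PRC1 to them, had a log2 B/A of -0.66 in the authors' deposited table at a mean of 3019. Bcor, its partner in that complex, lay at -0.42 in the authors' deposited table at a mean of 4305. Over the 20 PRC1 genes the median was -0.26 in the authors' deposited table, with 12 ratios below 0 and 1 past the size rule. The share past the rule was 5.0% in PRC1 and 18.2% in PRC2, which is 1 of 20 and 2 of 11 genes, all lower in condition B. Of all genes at the minimum mean, 17.9% met the rule in either direction and 9.60% in the lower one. The difference between the complexes was not tested.

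All 3 genes of PR-DUB lay slightly below 0. The deubiquitinase gene Bap1 had a log2 B/A of -0.19 in the authors' deposited table at a mean of 4399. Its cofactor genes Asxl1 and Asxl2 had log2 B/A values of -0.55 and -0.18 by the authors' deposited table, at means of 5597 and 3080. None met the size rule.

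To compare levels between genes, the mean normalized count was divided by the length in kb of the longest GENCODE M21 transcript. On this scale the highest of the 34 were Rbbp7 at 6621, Rbbp4 at 3297 and Phc2 at 2422 mean normalized counts per kb. The median of the 34 was 711, beside 597 over 11695 genes at the minimum mean that had a length. Cbx7 was the lowest at 15.4 per kb. Within the EZH pair, Ezh2 held 73.9% of the level per kb and Ezh1 26.1%. Of the 4 CBX genes, Cbx6 held 73.9% of their summed level and Cbx7 1.03%. In the PHC family Phc2 held 69.0%, Phc1 16.4% and Phc3 14.6%. Rnf2 held 73.4% of the RING pair. By the mean over both conditions, the leading gene of these 4 families was the same with the median transcript length. That length gave 63.9% to Ezh2, 90.6% to Cbx6, 79.9% to Phc2 and 89.6% to Rnf2. Below the leading gene the order was not the same. By the median length Phc3 (14.2%) lay above Phc1 (5.89%) and Cbx8 (4.96%) above Cbx2 (3.31%), the reverse of the order by the longest transcript. In the PCGF, PCL and RYBP families the leading gene itself depended on the length used. By the longest transcript Bmi1 (34.7%), Phf1 (49.1%) and Yaf2 (61.8%) led, and by the median length Pcgf3 (47.3%), Mtf2 (48.4%) and Rybp (79.5%) did. Shares within each condition were not computed. The leading gene may differ there, since the ratio of Ezh1 to Ezh2 was 3.87-fold higher in condition B by the authors' deposited table.

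**Figure D3:**
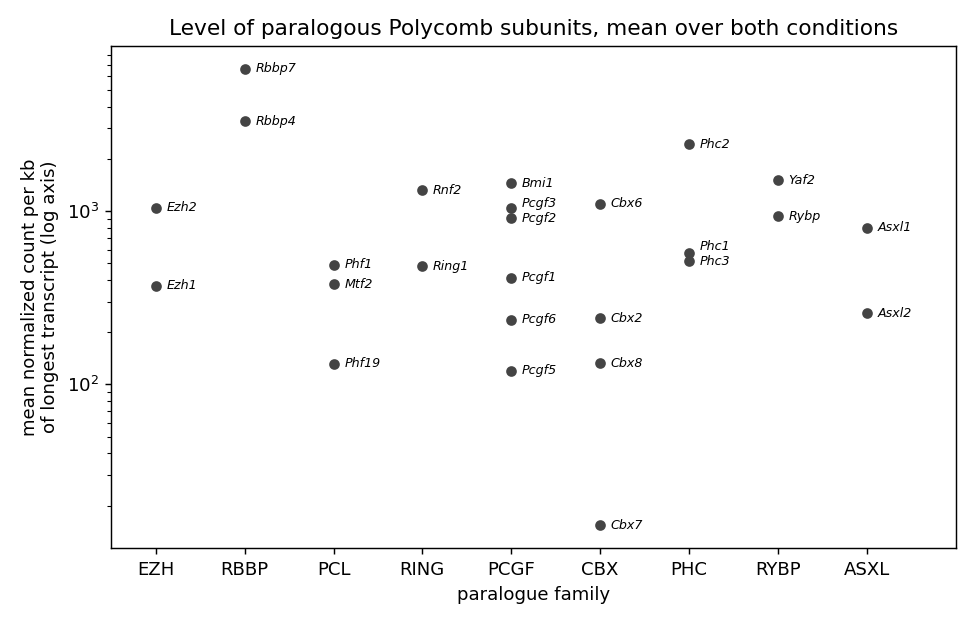
Mean normalized count over both conditions per kb of longest transcript (log axis) for the genes of 9 paralogue families, 1 point per gene with no error. Rbbp7 and Rbbp4 lie highest and Cbx7 lowest, 71.5 times below Cbx6.

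A ratio between paralogues is taken within each library and does not depend on the scaling between libraries, so the balance of paralogues was set between the conditions. Over 32 pairs in 9 families, the log2 B/A values of the genes of a pair differed by a median of 0.46. The difference was at least 1 for 6 pairs, and Ezh2, Phf19 or Phc1 was the lower gene in 5 of these. The ratio of Ezh1 to Ezh2 was 3.87-fold higher in condition B by the authors' deposited table. That of Phf1 to Phf19 was 4.89-fold higher and that of Mtf2 to Phf19 2.93-fold higher by the authors' deposited table. The ratios of Phc2 and of Phc3 to Phc1 were 2.79-fold and 2.73-fold higher by the authors' deposited table. In the sixth pair, the ratio of Cbx8 to Cbx2 was 2.05-fold higher by the authors' deposited table. The balance differed little for Ring1 to Rnf2 (1.05-fold) and Rbbp4 to Rbbp7 (1.04-fold) by the authors' deposited table. The largest shift within the 15 PCGF pairs was 1.70-fold, of Pcgf3 to Bmi1 by the authors' deposited table.

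**Figure D4:**
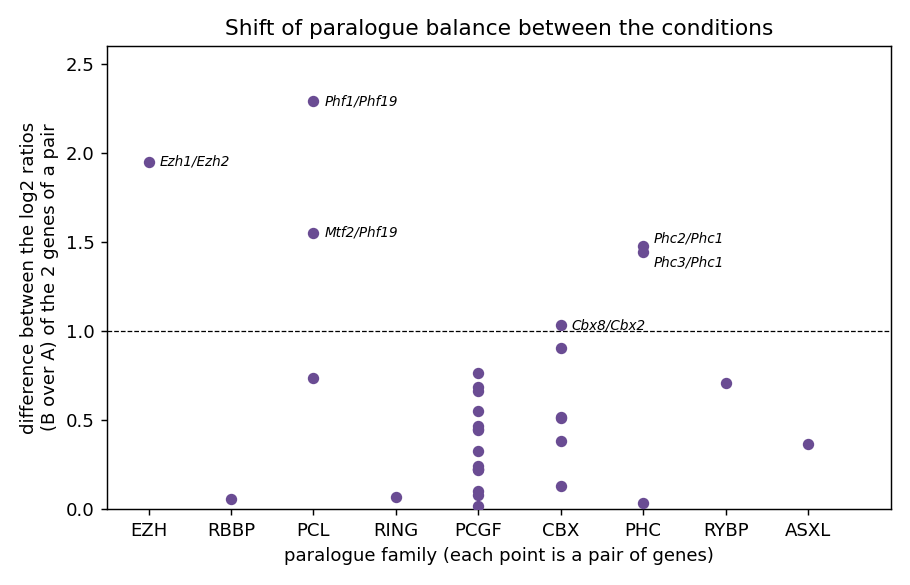
Difference between the log2 ratios (condition B over condition A) of the 2 genes of each paralogue pair, by family, from the authors' deposited table, with a difference of 1 dashed. The pairs past the line involve Phf19, Ezh2, Phc1 or Cbx2, and the RING and RBBP pairs lie near 0.

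Other Polycomb subunits and partners, a list of 34 entries of which 33 were in the table and 32 at the minimum mean, had a similar median. Their median log2 B/A was -0.21 in the authors' deposited table, with 4 genes past the size rule, all lower, which is 12.5% beside the background of 9.60% in that direction. These were Scml2, a relative of Scmh1, at a log2 B/A of -2.61, Sfmbt2 at -1.60, Asxl3 at -1.27 and E130012A19Rik, now named Epop, at -1.19 in the authors' deposited table. Their mean normalized counts were 116, 790, 191 and 297, and among all genes from 50 up to 200, where Scml2 and Asxl3 lie, 20.3% were lower by the size rule. By DESeq, 0 of the list passed the authors' adjusted p of 0.1. At an unadjusted p under 0.05 there was 1, Sfmbt2 (p = 0.0362 in the authors' deposited table), which is 3.12% beside 8.72% of all genes at the minimum mean. Epop is an accessory subunit of PRC2 beside Phf19. The demethylases of lysine 27 were without a gene past the rule, with Kdm6a at -0.60 and its Y-linked relative Uty at 0.10 in the authors' deposited table.

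Both genes of the INK4 locus, which PRC1 and PRC2 repress in fibroblasts, met the size rule and were higher in condition B. Of all genes at the minimum mean, 8.31% were higher by that rule. Cdkn2b, which encodes the inhibitor p15, was 3.67-fold higher by the authors' deposited table at a mean normalized count of 7169 (log2 B/A 1.87, adjusted p = 0.135). Its neighbour Cdkn2a, which encodes p16 and p19Arf, was 3.98-fold higher at a mean of 9644 (log2 B/A 1.99, adjusted p = 0.0854 in the authors' deposited table). With 1 library a condition, no relation to the subunit genes was tested.

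Proliferation genes lay lower in condition B, as Ezh2, Phf19 and Phc1 did. This list, like the others here, was chosen with earlier results of these data known. Of 15 genes in the list, 12 (80.0%) lay past the size rule in the lower direction, beside 9.60% of all genes at the minimum mean. In the higher direction 0 did, beside 8.31%. The median log2 B/A of the 15 was -1.56 in the authors' deposited table. The authors' adjusted p was under 0.1 for 3 of the 15, all lower, beside 2.29% of all genes they tested with DESeq. They were the marker Mki67 at a log2 B/A of -2.26, the cyclin gene Ccna2 at -2.03 and the topoisomerase gene Top2a at -1.97 in the authors' deposited table. The replication helicase genes Mcm2, Mcm3 and Mcm6, at -1.71, -1.56 and -1.67 in the authors' deposited table, stood closest to Ezh2 (-1.63). E2f1 (-0.02) and Rrm2 (-0.08) lay near 0 in the authors' deposited table. The remaining genes lower by the size rule were Mcm5 (-1.96), Ccnb1 (-1.77), Cdk1 (-1.39), Mcm4 (-1.16), Mcm7 (-1.13) and Tyms (-1.08) in the authors' deposited table. The part of cell division in the ratios of Ezh2, Phf19 and Phc1 was not tested.

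**Figure D5:**
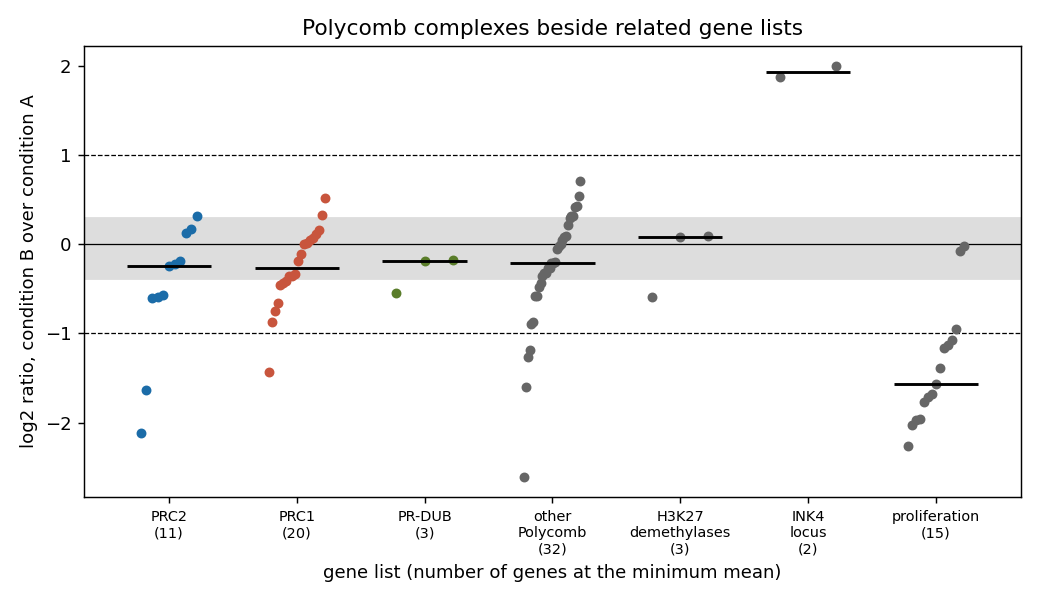
Log2 B/A of each gene at the minimum mean in the 3 Polycomb complexes and 4 related lists (points, sorted within a list), with the median of each list as a bar and the range between the quartiles of all genes shaded, from the authors' deposited table. The medians are -0.24 in PRC2, -0.26 in PRC1, -0.19 in PR-DUB, -1.56 in proliferation and 1.93 at the INK4 locus, and the band shows the spread of single genes, not of medians.

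The cells were checked by marker genes. All 9 fibroblast markers were at the minimum mean, with a summed mean normalized count of 1445660. The summed means were 5.53 over 4 blood markers, 41.4 over 3 pluripotency markers, 141 over 4 epithelial markers and 437 over 3 endothelial markers, the last nearly all from Kdr. Cd3e and Zfp42 were listed at 0. Of the neural markers, Tubb3 had a mean of 3977 in the authors' deposited table, against 31.0 for Sox10 and 10.9 for Sox2. The endothelial marker Kdr (log2 B/A 2.78) and the epithelial marker Krt18 (-2.29) differed by the size rule in the authors' deposited table. Fibroblast markers were past the size rule in 3 of 9 cases, all higher in condition B (Dcn, Thy1 and Pdgfra). That is 33.3%, beside 8.31% of all genes at the minimum mean in that direction. Dcn was 50.5-fold, Thy1 7.35-fold and Pdgfra 5.80-fold higher by the authors' deposited table (log2 B/A 5.66, 2.88 and 2.54). Each of these log2 ratios was larger in size than that of Phf19 (-2.12), the most extreme of the Polycomb subunit genes. Of the 9 fibroblast markers, 3 had log2 ratios below 0, the lowest being Col1a1 at -0.08. The part of cell makeup in the subunit ratios was not tested. The targeted genes Tet1 and Tet2 had log2 B/A values of -1.82 and -0.74 by the authors' deposited table, and since a gene count does not separate a deleted exon, they do not identify the knock-out condition.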

How the data were processed

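RNA was extracted with TRIzol from frozen pellets and libraries were made with the TruSeq RNA v2 kit, per the labels' protocols. TopHat2 2.0, DESeq and build mm9 are named in the submitters' processing notes, and the counter, annotation and dispersion settings are not given in the sources read here. The authors deposited 1 table of their comparison. Its signal is the authors' mean over both conditions of counts divided by size factors. Its ratio, or fold, is the authors' condition B over condition A, and the deposited log2 column is its logarithm to base 2, taken without a pseudocount. The deposited p-values are the authors' own, and the adjusted ones equal a Benjamini-Hochberg adjustment over 17339 genes when recomputed (largest difference 7.9e-15). The other 6026 genes carry no p.

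The table's condition names, A and B, are those of neither sample, so 2 columns of values per condition were set aside and not used. The table's own mean and ratio stood in for them, and the planned direction, knock-out over wild type, became condition B over condition A. Depth per library was not analysed here. Mean normalized counts sum to 58127871 over the table. No test across samples was possible. The subunits, the lists and the size rule (mean normalized count of at least 50, log2 ratio of at least 1 in size) were chosen with earlier results of these data known. All 34 subunits were named, and of the other lists the genes past the size rule or an adjusted p of 0.1 and the 2 with the largest ratios in size. E2f1, Rrm2 and single cell type markers were named after their values were seen.

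Lengths and exon overlaps came from GENCODE M21 (GRCm38) and promoter windows from RefSeq (GRCm38.p6), by symbol. Since the authors used mm9, this build served names, lengths and sequences only. Alternatives were other size limits and minimum means, and centring on the median or on a trimmed mean (30% of ratios and 5% of abundances removed at each end). The rule and the centring were tested on simulated data that held counting noise only, with all changed genes set past the limit. That run does not show how the rule behaves with variation between cultures. Python 3.11.15, pandas 2.3.3 and numpy 2.4.6 were used.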

Additional observations from a re-analysis of the deposited data

How the results depend on the processing

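Phf19, Ezh2 and Phc1 were the genes past the size rule with minimum means of 10, of 200 and with none, and when ratios were centred on the trimmed mean (-0.04) or the median (-0.04) of all genes. Centring turned the sign of 0 of the 34 genes. With a log2 B/A limit of 2, 1 gene met the rule (Phf19), 1 in PRC2 and 0 in PRC1, which is 2.94% of the 34 beside 6.79% of all genes and 2.95% of all genes in the lower direction. At 1.5-fold, 8 genes did, 4 in PRC2 and 4 in PRC1, all lower in condition B, which is 23.5% of the 34 beside 31.3% of all genes and 17.4% of all genes in that direction. A minimum mean of 1000, chosen after seeing the data, left Ezh2 and Phc1, 2 of 27 genes (7.41%, beside 9.7% of all genes and 5.6% in the lower direction), since Phf19 lies under it. At the authors' raw p under 0.05, 3 genes passed in place of 0.

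Centred on the trimmed mean, the medians were -0.20 in PRC2, -0.22 in PRC1 and -0.15 in PR-DUB, and centred on the median of all genes they were -0.21, -0.23 and -0.15. A minimum mean of 200, which leaves out Cbx7, put the PRC1 median at -0.19. Levels per kb rested on the transcript length used. With the median length, 32 of 34 genes changed rank, by up to 15 places, and 27 had levels over 1.5 times higher. No paired analysis was possible because each genotype has 1 library. No replicate could be left out. Counting errors were not analysed here.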
